A study of Mus musculus with 6 samples.

Results

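The small leucine-rich proteoglycans described here are 9 genes, Dcn, Bgn, Aspn, Fmod, Lum, Prelp, Omd, Ogn and Podn, picked by name out of the 35275 genes of a table of whole mouse aorta. RNA was sequenced in 6 libraries, 3 labelled wild-type and 3 labelled EC-Jag1KO, in which the Notch ligand Jagged1 is lost from mature endothelium. The sources used here do not give the Cre driver, strain, age or any pooling of animals. No label ties a library to an animal of its own, so the p-values below reflect only the variation among these 6 libraries. Each genotype held libraries of both sexes, so its libraries do not all come from 1 animal. The question is whether the matrix genes of the vessel wall differ when the endothelium lacks Jagged1. Values are FPKM, that is, fragments scaled to gene length and to the reads assigned to genes, so levels of different genes can be compared per length.

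Small leucine-rich proteoglycans are secreted proteins whose core is a curved stack of leucine-rich repeats. They bind fibrillar collagens and set how collagen fibrils assemble and how thick they become, and several also bind TGF-beta or cell surface receptors. In the arterial wall they are made by adventitial fibroblasts and by smooth muscle cells, and loss of biglycan predisposes mice to aortic dissection. Class I (decorin, biglycan, asporin) and class II (fibromodulin, lumican, prolargin, osteomodulin) differ in the chains they carry, which are chondroitin or dermatan sulfate on decorin and biglycan and keratan sulfate on several class II proteins. Osteoglycin belongs to class III and podocan to class V.

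The libraries held 19889910 to 25914325 reads in genes, of which 0.677% to 0.874% fell in these 9 genes. Wild-type replicate 3 and EC-Jag1KO replicate 3 were female by Xist and Y-linked genes and the other 4 were male. EC-Jag1KO replicate 3 lay farthest from the other libraries, with a mean root mean square difference of 0.437 on the log2 scale against 0.338 to 0.409 for the rest. Defining markers of smooth muscle were abundant, with Acta2 at 7383 ± 250.2 FPKM and Tagln at 4221 ± 204 FPKM in wild-type libraries (SD, n = 3), and endothelial Pecam1 stood at 195 ± 30.6 FPKM. The wild-type mean of Jag1 itself was 12.4 ± 3.83 and its EC-Jag1KO mean 14.2 ± 5.12 FPKM (SD, n = 3 each). In whole aorta the endothelial part of this level cannot be told apart, so it does not check the deletion.

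All 9 members were well above the limit of counting. They held 516 to 124816 reads per library, and the largest counting error of any value, that of Omd, was 4.40%. Bgn, the biglycan gene, had the highest level in every library, with 17 of the 12165 tested genes above it by mean FPKM. Dcn followed with 47 genes above it, then Ogn with 80 and Prelp with 236. Omd, the osteomodulin gene, was the lowest in every library.

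**Figure D1:**
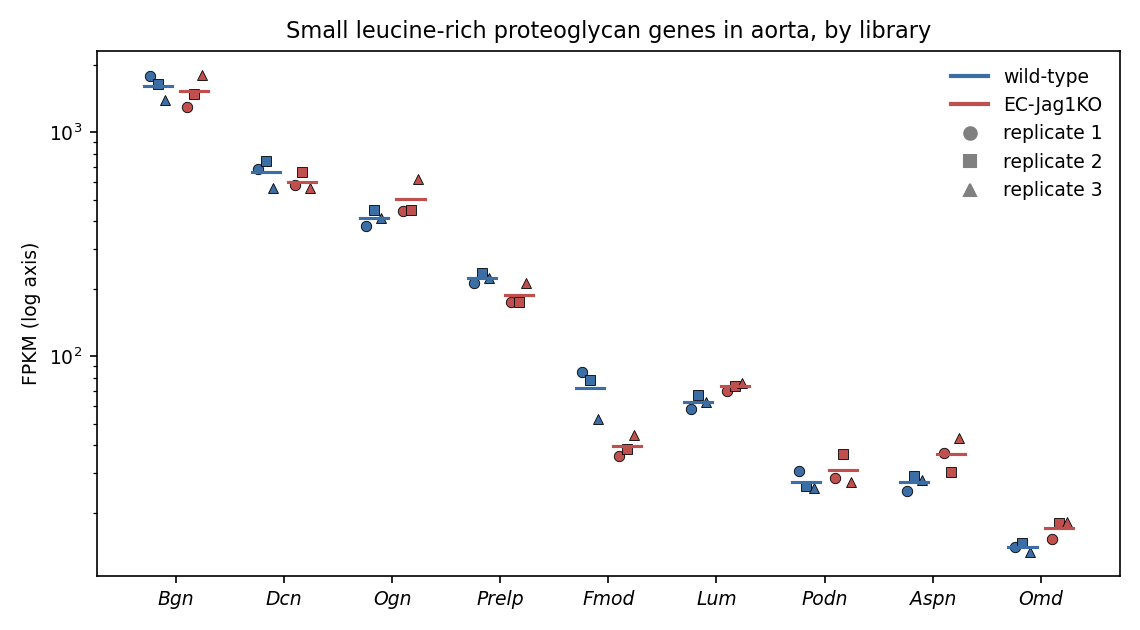
FPKM on a log axis for the 9 genes, with 1 point per library (circle, square and triangle for replicates 1, 2 and 3), wild-type in blue, EC-Jag1KO in red, and a line at each group mean. Bgn is highest and Omd lowest in all 6 libraries, and the blue and red points separate in Prelp, Fmod, Lum, Aspn and Omd.

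The order of levels in wild-type aorta was Bgn, Dcn, Ogn, Prelp, Fmod, Lum, Podn, Aspn and Omd, and neighbours in this order did not overlap except Fmod with Lum and Podn with Aspn. In EC-Jag1KO aorta Lum stood above Fmod in 3 of 3 libraries, and the ranges overlapped between Dcn and Ogn, Fmod and Aspn, and Aspn and Podn. Summed over the 9 genes the wild-type level was 3114 ± 290.2 and the EC-Jag1KO level 3017 ± 369 FPKM (SD, n = 3 each), a difference smaller than the spread between replicates. Biglycan alone made up 48.2% to 54.4% of that sum over the 6 libraries. The share of Fmod was 1.90% to 2.60% in wild-type and 1.29% to 1.34% in EC-Jag1KO libraries, and that of Aspn was 0.767% to 1.01% against 1.02% to 1.38%. Omd made up 0.428% to 0.482% against 0.533% to 0.608%, and Ogn 11.6% to 14.9% against 15.1% to 18.1%. The shares of these 4 genes did not overlap between the genotypes, while those of Dcn, Bgn, Lum, Prelp and Podn did. A share also moves with the other members, chiefly Bgn, and has no counterpart over all tested genes. By FPKM the libraries of Ogn overlapped between the genotypes.

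No member passed the test between genotypes. Genes were tested as log2(FPKM + 1) with limma, two-sided, with Benjamini-Hochberg adjustment over 12165 genes of at least 1 FPKM on average, which all 9 members met. At an adjusted p of 0.05, 0 of 9 members and 0 of 12165 genes (0%) were called, and the adjusted p of the members in limma ran from 0.402 to 0.940. At an unadjusted p under 0.05 there were 2 members higher and 1 lower in EC-Jag1KO, against 4.25% and 3.46% of all tested genes in those directions and 7.71% in either. The libraries of the genotypes did not overlap in 5 members, 3 higher (Aspn, Lum and Omd) and 2 lower (Fmod and Prelp), where 6.84% of all tested genes were so placed higher and 6.73% lower. The median log2 fold change was 0.15 over the members and -0.00022 over all tested genes, with 5 members above 0 and 4 below. Of all tested genes 50% were above 0. Because the members were chosen with earlier results known, these counts describe the genes and carry no test of the list.

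**Figure D2:**
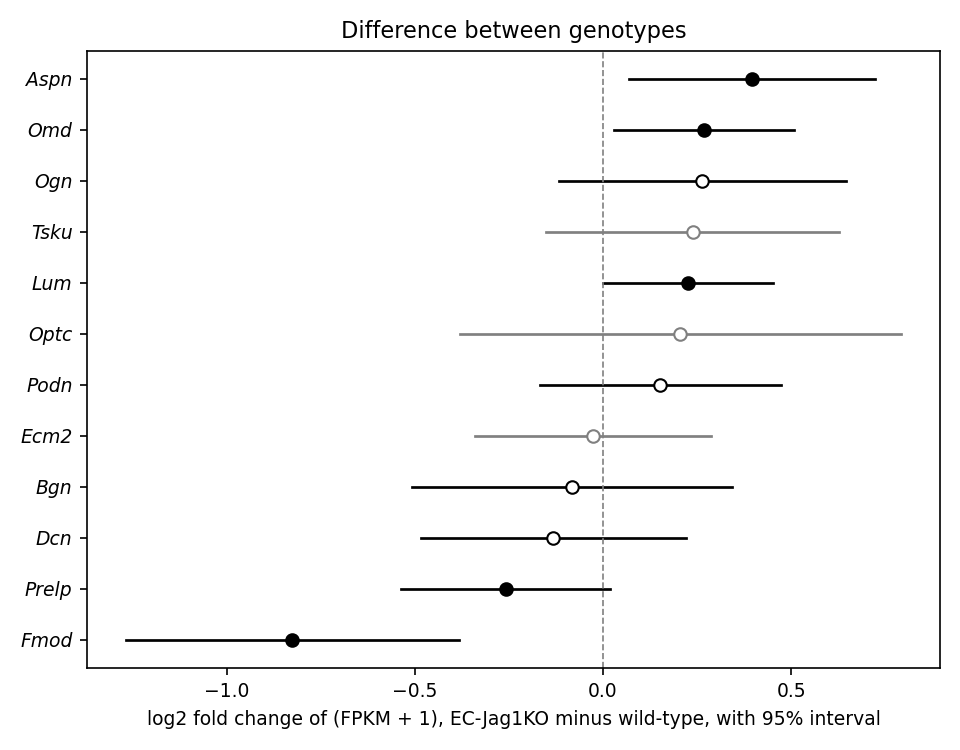
Log2 fold change of FPKM + 1 (EC-Jag1KO minus wild-type) with the 95% interval from limma, for the 9 members in black and 3 other tested genes of the family in grey. Filled points mark genes whose libraries do not overlap between genotypes, and the interval lies wholly off 0 for Fmod (lower), Omd and Aspn (higher).

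Fmod, the fibromodulin gene, differed most among the members. Fibromodulin is a class II keratan sulfate protein that binds type I collagen and modulates fibril growth and crosslinking. Fmod (ENSMUSG00000041559, chromosome 1, 134037254 to 134048277 of mm10, plus strand) measured 85.2, 78.4 and 52.7 FPKM in wild-type replicates 1 to 3. In EC-Jag1KO replicates 1 to 3 it measured 35.8, 38.4 and 44.6 FPKM. All 3 EC-Jag1KO libraries lay below the lowest wild-type library, and the nearest values across genotypes were those of the female libraries. The means were 72.1 ± 17.2 and 39.6 ± 4.53 FPKM (SD, n = 3 each). On log2(FPKM + 1) values the fold change was -0.83 (SE 0.19, 95% interval -1.27 to -0.38). The unadjusted p in limma was 0.00294 and the adjusted p 0.402. Without both female libraries the log2 fold change was -1.12 (adjusted p = 0.0683 in limma), and it ran from -1.03 to -0.69 with each library left out in turn.

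Prelp, the other member whose libraries were lower in EC-Jag1KO, lies on the same chromosome as Fmod, with 115840 bases between them. Its product, prolargin, has a basic amino end that binds heparan sulfate and anchors basement membrane to collagen. Prelp (ENSMUSG00000041577, minus strand of chromosome 1, 133910304 to 133921414) stood at 213, 234 and 222 FPKM in wild-type and at 174, 175 and 212 FPKM in EC-Jag1KO replicates 1 to 3. The separation was narrow, since EC-Jag1KO replicate 3 (211.8 FPKM) lay just under wild-type replicate 1 (212.8 FPKM). On the log2 scale the fold change was -0.26 (SE 0.12), and the adjusted p in limma was 0.663. With the fibroblast marker level as a covariate the log2 fold change of Prelp was -0.077.

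The promoters of Fmod and Prelp are shown because these are the members with lower values in EC-Jag1KO libraries. They run from 250 bases before to 50 bases after the start site, 5′ to 3′ on the strand of the gene, from RefSeq on GRCm38.p6: chr1:134037004-134037303 on the plus strand for Fmod and chr1:133921352-133921651 on the minus strand for Prelp. Capitals mark matches, on either strand, to any of 5 motifs that were searched. The core of the site of RBPJ, the DNA-binding partner through which Notch acts on its target genes, was searched as TGGGAA. The box that positions the transcription machinery in some promoters was searched as TATAAA. The site of AP-1, a factor that responds to growth signals and stress, was searched as TGACTCA. The site of the TEAD factors, which act with YAP in the Hippo pathway, was searched as CATTCC, and the site of serum response factor, known from smooth muscle genes, as the CArG box. No matches overlapped in the promoters printed here.
Fmod: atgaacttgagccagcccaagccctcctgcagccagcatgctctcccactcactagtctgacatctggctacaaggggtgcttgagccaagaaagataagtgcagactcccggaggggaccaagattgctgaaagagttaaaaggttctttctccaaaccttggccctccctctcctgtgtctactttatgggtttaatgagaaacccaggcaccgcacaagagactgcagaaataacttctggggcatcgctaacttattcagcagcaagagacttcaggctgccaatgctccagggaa
Prelp: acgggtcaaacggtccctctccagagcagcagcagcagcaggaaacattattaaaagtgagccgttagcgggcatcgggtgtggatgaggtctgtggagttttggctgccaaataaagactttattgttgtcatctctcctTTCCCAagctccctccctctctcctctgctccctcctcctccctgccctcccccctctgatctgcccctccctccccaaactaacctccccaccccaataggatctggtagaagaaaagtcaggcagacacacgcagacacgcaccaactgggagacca
Prelp held 1 match, the RBPJ core on the strand opposite to the printed one, with its leftmost base at -109 from the start site. Fmod held none of the 5 motifs. Of 32851 promoters of 300 bases in the same table, 25.6% held the RBPJ core, 13.6% the TATA box letters, 14.7% the TEAD letters, 5.2% the AP-1 letters and 1.63% a CArG box. These are matches of letters and not measured sites.

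Aspn, Omd and Ogn sit side by side on the plus strand of chromosome 13, and all had a higher mean in EC-Jag1KO libraries. Aspn and Omd are 15209 bases apart and Omd and Ogn 15462, and all lie inside Cenpp, a gene on the other strand at 0.777 to 2.21 FPKM, highest in EC-Jag1KO replicate 3. No strand setting is stated, so reads of overlapping genes cannot be told apart, and Cenpp held 22 to 63 reads per library where Omd, the least covered of these members, held at least 516. Aspn (ENSMUSG00000021388, 49544443 to 49567557) encodes asporin, which binds TGF-beta and collagen and carries no glycosaminoglycan chain. It stood at 25.1, 29.3 and 28.0 FPKM in wild-type and at 36.9, 30.4 and 43.0 FPKM in EC-Jag1KO replicates 1 to 3. The groups did not overlap, although EC-Jag1KO replicate 2 was close to wild-type replicate 2. Aspn had a log2 fold change of 0.40 (SE 0.14, unadjusted p = 0.0239, adjusted p = 0.579 in limma).

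Omd (ENSMUSG00000048368, 49582766 to 49592609) encodes osteomodulin, a keratan sulfate protein known from bone and tooth that modulates collagen fibril diameter. Its values were 14.0, 14.6 and 13.4 FPKM in wild-type libraries and then 15.2, 18.0 and 18.2 FPKM in EC-Jag1KO replicates 1 to 3. Every EC-Jag1KO value was above every wild-type value, at a log2 fold change of 0.27 (SE 0.10, unadjusted p = 0.0321, adjusted p = 0.607 in limma). Ogn (ENSMUSG00000021390, 49608071 to 49624500) encodes osteoglycin, also called mimecan, which binds collagen and is abundant in arteries. It measured 381, 450.2 and 415 FPKM in wild-type libraries and then 446, 447 and 618 FPKM in EC-Jag1KO replicates 1 to 3. Here the groups overlapped, and the log2 fold change of 0.26 (SE 0.16, adjusted p = 0.758 in limma) was 0.11 without EC-Jag1KO replicate 3. Ecm2, a relative in the same row 11654 bases before Aspn, had a wild-type mean of 95.5 ± 9.37 and an EC-Jag1KO mean of 93.9 ± 13.4 FPKM (n = 3 each).

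The promoters of Aspn and Omd are shown as those of adjacent members whose libraries did not overlap in the higher direction, at chr13:49544193-49544492 and chr13:49582212-49582511, both on the plus strand and with capitals as above.
Aspn: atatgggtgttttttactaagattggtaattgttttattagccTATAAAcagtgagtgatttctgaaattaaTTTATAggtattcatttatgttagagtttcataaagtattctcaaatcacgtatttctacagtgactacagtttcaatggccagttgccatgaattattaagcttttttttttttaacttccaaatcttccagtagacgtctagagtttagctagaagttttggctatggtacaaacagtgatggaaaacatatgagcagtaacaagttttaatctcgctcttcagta
Omd: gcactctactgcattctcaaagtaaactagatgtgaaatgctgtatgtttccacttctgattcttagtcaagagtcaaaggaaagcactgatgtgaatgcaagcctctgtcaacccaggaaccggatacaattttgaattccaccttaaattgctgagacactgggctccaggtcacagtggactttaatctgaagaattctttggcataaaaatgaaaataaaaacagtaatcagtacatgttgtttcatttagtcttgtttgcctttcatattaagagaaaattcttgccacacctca
Aspn held 2 matches to the TATA box letters, at -207 on the plus strand and -178 on the minus strand, and Omd held none of the 5 motifs. Promoter entries were matched for 7 of the 9 members. The entry of Omd ends before base 49582766, where the measured gene starts, so the 2 sources place its start differently.

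Lum, the lumican gene, was the remaining member with higher values in each EC-Jag1KO library. Lumican is a class II protein that restrains collagen fibril thickness and is best known from the transparent cornea. Lum (ENSMUSG00000036446, plus strand of chromosome 10, 97565501 to 97572703) stood at 58.1, 67.0 and 62.7 FPKM in wild-type and at 70.1, 73.6 and 76.2 FPKM in EC-Jag1KO replicates 1 to 3. The means were 62.6 ± 4.45 and 73.3 ± 3.08 FPKM (SD, n = 3 each). On log2(FPKM + 1) values the fold change was 0.23 (SE 0.097), with an unadjusted p of 0.0506 and an adjusted p of 0.645 in limma. Its neighbour Dcn, 47339 bases before it on the same strand, lay on the other side of 0.

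Dcn and Bgn, the most abundant members, overlapped between genotypes. Decorin, the product of Dcn, wraps collagen fibrils and binds TGF-beta. Dcn (ENSMUSG00000019929, chromosome 10, 97479500 to 97518162) stood at 686, 742 and 561 FPKM in wild-type and at 580.0, 663 and 563 FPKM in EC-Jag1KO replicates 1 to 3. The female libraries were the lowest of each genotype. Its log2 fold change of -0.13 had a 95% interval of -0.48 to 0.22 (adjusted p = 0.884 in limma). It was -0.046 when wild-type replicate 2 was dropped, -0.25 when wild-type replicate 3 was, -0.20 when EC-Jag1KO replicate 2 was and -0.086 when EC-Jag1KO replicate 3 was. It was -0.20 without both female libraries, -0.25 with the fibroblast covariate and -0.063 after quantile normalization. Bgn (ENSMUSG00000031375, plus strand of chromosome X, 73483602 to 73495933) stood at 1784, 1644 and 1399 FPKM in wild-type and at 1289.8, 1484 and 1807 FPKM in EC-Jag1KO replicates 1 to 3. The female library was the lowest of the wild-type group and the highest of the EC-Jag1KO group. For Bgn the log2 fold change was -0.082 (95% interval -0.51 to 0.34, adjusted p = 0.940 in limma), and it was -0.31 without both female libraries, -0.21 when EC-Jag1KO replicate 3 was dropped and 0.033 when EC-Jag1KO replicate 1 was.

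Podn, the podocan gene, was also within the replicate spread. Podocan was named for kidney podocytes, and in mice it restrains smooth muscle growth after arterial injury. Podn (ENSMUSG00000028600, minus strand of chromosome 4, 108014791 to 108096445) stood at 30.7, 26.3 and 25.7 FPKM in wild-type and at 28.7, 36.7 and 27.4 FPKM in EC-Jag1KO replicates 1 to 3. EC-Jag1KO replicate 2 was the highest library, and without it the log2 fold change of 0.15 was 0.025. Podn overlaps Scp2 on the same strand, a gene at 52.1 to 78.9 FPKM, so its level is uncertain.

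**Figure D3:**
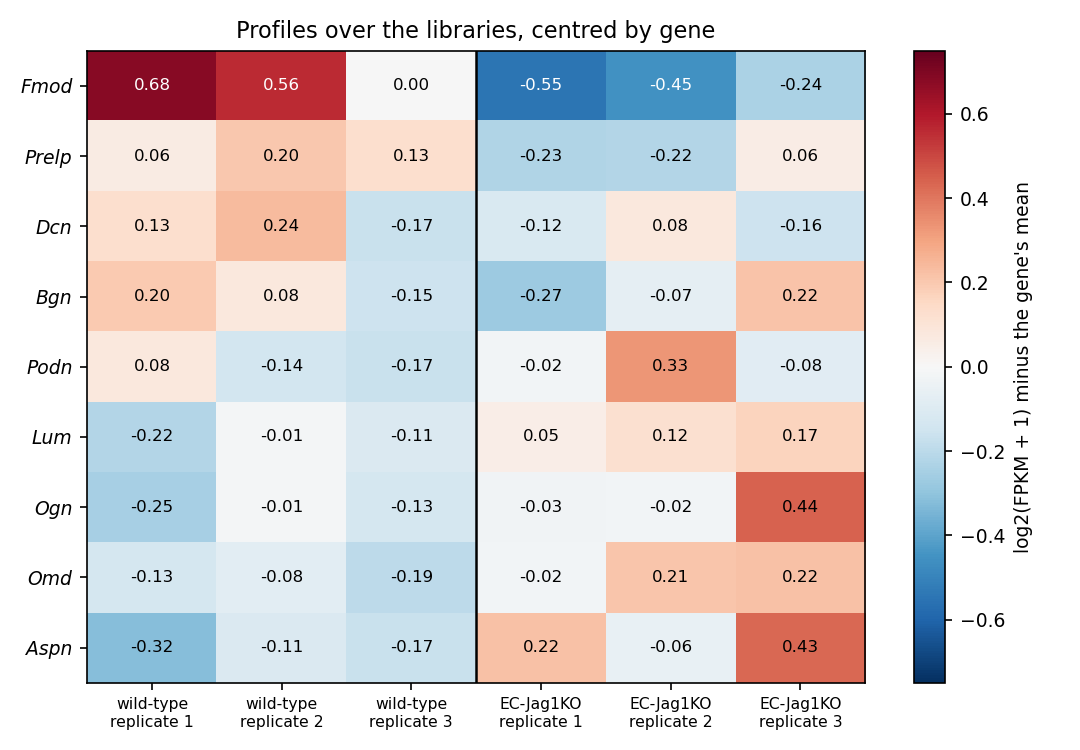
Log2(FPKM + 1) of each member minus its mean over the 6 libraries, 1 column per library and the genotypes split by the black line. Fmod has the widest range, from -0.55 to 0.68, and Ogn and Aspn have their highest values, 0.44 and 0.43, in EC-Jag1KO replicate 3.

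Profiles over the 6 libraries were compared by the root mean square difference of centred log2 values, where 0 means the same profile. Among the members the closest were Lum and Omd at 0.075 and then Aspn and Ogn at 0.11. Among 8209 other protein-coding genes of at least 5 FPKM on average, the nearest to Fmod were Ahcy, which encodes the enzyme that hydrolyses S-adenosylhomocysteine, at 0.078, and Nrtn, the neurturin gene, at 0.12. Fmod stood farther from its nearest gene than any other member did. It also had the widest range, and these distances are not scaled to a gene's own range. The nearest to Aspn were Sema3d (0.049) and Astn2 (0.058), to Prelp Smoc2 (0.034) and Igf2r (0.040), to Lum Vkorc1l1 (0.037) and Ptpn1 (0.040), and to Omd Mtmr10 (0.0499) and Sod3 (0.051). For Dcn they were Nans (0.031) and Arfgap3 (0.038), for Bgn Akap13 (0.039) and Mrc1 (0.052), for Ogn Dnmbp (0.043) and Fam26e (0.047), and for Podn Fcf1 (0.031) and S100a11 (0.032). With 6 libraries and this many genes, close profiles arise readily, and the distances are descriptions.

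Fibromodulin and lumican compete for a site on type I collagen, so the ratio of their FPKM was taken within each library. Fmod to Lum was 1.47, 1.17 and 0.840 in wild-type and 0.511, 0.521 and 0.585 in EC-Jag1KO replicates 1 to 3. Fmod exceeded Lum in wild-type replicates 1 and 2 and in no EC-Jag1KO library, and the groups did not overlap. The mean log2 ratio was 0.18 ± 0.41 in wild-type and -0.89 ± 0.11 in EC-Jag1KO libraries (SD, n = 3 each), a difference of -1.07 with an exact two-sided permutation p of 0.1, the smallest that 3 against 3 allows. Adjusted over the 2 ratios tested, this exact p was 0.2. The ratio was chosen with earlier results known and restates the values of Fmod and Lum given above, so it is not separate evidence. Bgn to Dcn, the ratio of the main class I members, was 2.60, 2.22 and 2.50 in wild-type and 2.22, 2.24 and 3.21 in EC-Jag1KO replicates 1 to 3. These groups overlapped, with a difference in mean log2 ratio of 0.050 and an exact two-sided permutation p of 0.8. Without EC-Jag1KO replicate 3 that difference was -0.12.

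**Figure D4:**
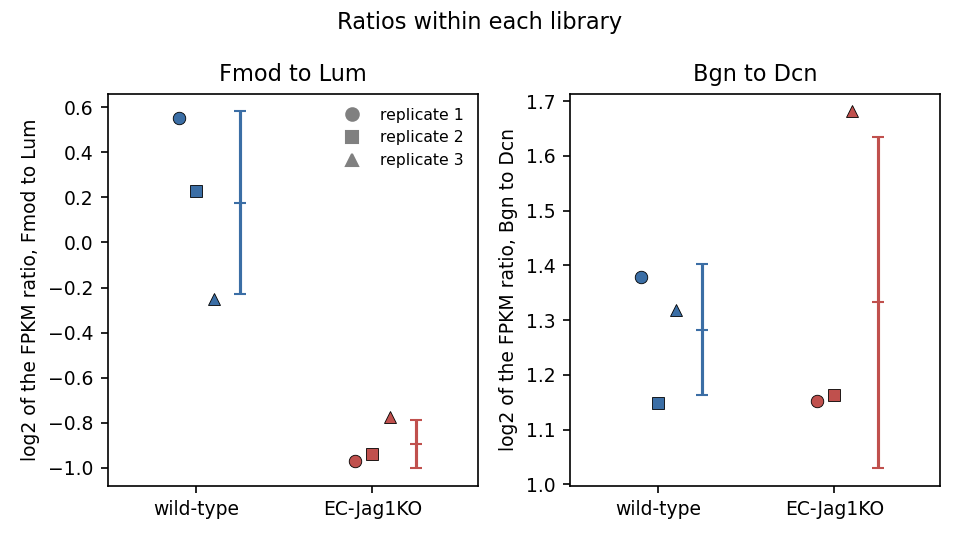
Log2 of the within-library FPKM ratio, Fmod to Lum on the left and Bgn to Dcn on the right, with 1 point per library and the mean ± SD beside each group. The Fmod to Lum ratio lies between -0.25 and 0.55 in wild-type and between -0.97 and -0.77 in EC-Jag1KO libraries, while the Bgn to Dcn ratios overlap.

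Other genes of the family were mostly at low levels. Of 9 listed, 3 had a mean of at least 1 FPKM, and 0 of these passed the adjusted threshold. Optc, the opticin gene, best known from the vitreous of the eye, had a wild-type mean of 37.8 ± 9.29 and an EC-Jag1KO mean of 44.1 ± 12.5 FPKM (n = 3 each), 2305 bases beyond the end of Prelp on the same strand. Tsku, the tsukushi gene, stood at 6.33 ± 1.05 against 7.68 ± 1.54 FPKM. Chad, the chondroadherin gene of cartilage, was at 0.616 to 1.26 FPKM over the 6 libraries, and Epyc, Nyx, Podnl1 and Nepn were below 0.46 FPKM in all of them. Kera, which encodes the corneal keratocan and lies just beyond Lum, is listed at 0 in every library.

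Collagens that form or coat fibrils, the partners of these proteins, had more members above 0 than below, where 50% of all tested genes were above 0. Of 14 listed genes 12 were tested, 9 had a higher and 3 a lower mean log2 level in EC-Jag1KO, 0 passed the adjusted threshold, and the median log2 fold change was 0.18. Col1a2, the most abundant, stood at 464 ± 52.1 against 563 ± 56.0 FPKM, and Col1a1 at 238 ± 17.5 against 297 ± 47.5 FPKM (n = 3 each). Col5a3, a chain of the collagen that starts fibrils, measured 1.76, 1.46 and 2.43 FPKM in wild-type libraries and 3.38, 2.15 and 3.44 in EC-Jag1KO replicates 1 to 3. Among the 12 tested genes the libraries of the genotypes overlapped in every case. The 14 genes summed to 1432 to 1711 FPKM in wild-type and 1618 to 2163 FPKM in EC-Jag1KO libraries, highest in EC-Jag1KO replicate 3. Of 11 large aggregating proteoglycans, link proteins and hyaluronan synthases 4 were tested, with 1 above 0, 3 below and a median of -0.14. Vcan, the versican gene, stood at 16.6 ± 8.16 against 13.2 ± 0.670 FPKM, Acan, the aggrecan gene, at 3.40 ± 1.83 against 1.54 ± 0.467 FPKM, and Bcan, the brevican gene, at 1.06 ± 1.54 against 2.16 ± 0.958 FPKM, all with overlap.

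Among enzymes that build the sugar chains, 0 passed the adjusted threshold. Of 22 chondroitin and dermatan sulfate genes 21 were tested, 7 above 0 and 14 below, with a median log2 fold change of -0.066. Chst12, a sulfotransferase of chondroitin, stood at 28.9, 28.6 and 30.8 FPKM in wild-type libraries, and at 25.2, 26.0 and 23.4 FPKM in EC-Jag1KO replicates 1 to 3, without overlap (adjusted p = 0.607 in limma). B3galt6, which adds a galactose of the linkage region, stood at 2.29 ± 0.312 against 1.45 ± 0.368 FPKM, also without overlap, and Chpf, the most abundant, at 51.6 ± 3.07 against 48.1 ± 3.81 FPKM (n = 3 each). Of 13 genes of keratan sulfate synthesis and tyrosine sulfation 9 were tested, 3 above 0 and 6 below, with a median of -0.044. Tpst1 encodes a Golgi enzyme that sulfates tyrosines, a modification that fibromodulin carries. It stood at 40.5, 45.9 and 43.8 FPKM in wild-type libraries, and at 34.4, 36.6 and 32.1 FPKM in EC-Jag1KO replicates 1 to 3, a log2 fold change of -0.33 without overlap (adjusted p = 0.498 in limma). St3gal1 and St3gal2, which add sialic acid, had log2 fold changes of 0.16 and -0.044.

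Among receptors and growth factors that these proteins bind, 19 of 20 were tested, 12 above 0 and 7 below, with a median log2 fold change of 0.14 and 0 past the adjusted threshold. Tlr4, a receptor through which free biglycan signals, stood at 5.18, 4.90 and 5.01 FPKM in wild-type libraries, and at 7.76, 6.12 and 9.12 FPKM in EC-Jag1KO replicates 1 to 3. The log2 fold change of Tlr4 was 0.51 without overlap (adjusted p = 0.443 in limma). Egfr, a receptor that decorin binds, stood at 4.47 ± 0.264 against 5.67 ± 0.489 FPKM, also without overlap. Ctgf, a matricellular growth factor gene and the most abundant of the list, stood at 643 ± 226 against 959 ± 299 FPKM (n = 3 each). Its libraries overlapped between the genotypes (adjusted p = 0.713 in limma). Of 16 genes of proteases that cut these proteins, with the procollagen enhancers, 10 were tested, 6 above 0 and 4 below, with a median of 0.11 and 0 past the threshold. Mmp3, stromelysin-1, which cleaves decorin among other matrix proteins, had a log2 fold change of -1.27 (adjusted p = 0.259 in limma). Pcolce, whose product speeds the trimming of procollagen by BMP1, stood at 89.3, 76.4 and 72.4 FPKM in wild-type libraries, and at 57.1, 60.9 and 52.5 FPKM in EC-Jag1KO replicates 1 to 3, without overlap and with an adjusted p of 0.402 in limma. Htra1, a secreted serine protease, stood at 259 ± 48.7 against 228 ± 4.34 FPKM.

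In whole tissue, fewer cells of a type and less RNA per cell cannot be told apart, so marker levels are given beside the members. Of 12 fibroblast markers, none of them a member, 11 were tested, 7 above 0 and 4 below. Their summed level was 1004 to 1047 for wild-type and 960.2 to 1379 FPKM in EC-Jag1KO libraries. By library the sum was 1249.5, 1378.6 and 960.2 FPKM in EC-Jag1KO replicates 1 to 3. Gpx3 led the list at 123 ± 69.3 against 285 ± 57.7 FPKM, without overlap, and Clec3b stood at 197 ± 26.0 against 202 ± 58.5 FPKM (n = 3 each). With the fibroblast level as a covariate the log2 fold changes were -0.74 for Fmod, 0.69 for Aspn, 0.57 for Ogn, 0.30 for Lum and 0.30 for Omd, none past the adjusted threshold in limma.

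Of 10 smooth muscle markers 4 were above 0 and 6 below, and without overlap 1 was higher and 4 were lower, beside the 6.84% and 6.73% of all tested genes. Their sum was 14266 to 14991 for wild-type and 12054 to 14318 FPKM in EC-Jag1KO libraries, lowest in EC-Jag1KO replicate 3. For endothelium the sums were 316 to 469 against 356 to 446 FPKM, with 6 of 10 markers above 0, 4 below and overlap in each. Pecam1 stood at 195 ± 30.6 against 210 ± 27.8 FPKM and Vwf at 43.7 ± 14.0 against 66.5 ± 14.6 FPKM. Macrophage sums were 224 to 287 against 258 to 287 FPKM, led by Lyz2 and C1qa. Adipocyte markers summed to 274 to 1806 against 737 to 1375 FPKM, led by Cfd and Pck1. Sums for chondrocyte markers were 3.53 to 7.41 against 3.45 to 5.51 FPKM, led by Acan and Chad with Cnmd listed at 0, and for Schwann cell markers 11.8 to 14.7 against 11.7 to 13.4 FPKM, led by Prx and Mbp. Heart and skeletal muscle markers, led by Actc1 and Tnnt3, summed to 8.65 to 20.2 against 12.1 to 40.1 FPKM. Lymphocyte markers, led by Trbc2 and Cd79a, summed to 1.55 to 3.54 against 0.729 to 1.58 FPKM, and mesothelial markers, led by Krt19 and Krt8, to 0.576 to 0.875 against 1.85 to 4.40 FPKM. No lymphocyte or mesothelial marker averaged 1 FPKM, so none was tested. Per library Trbc2 held 0 to 14 reads, Cd79a 5 to 35, Krt19 8 to 49 and Krt8 8 to 54. The part of these cell types in the differences of the members was not tested. The fibroblast covariate, the mean log2(FPKM + 1) of its list, was 5.61 to 5.74 in wild-type and 5.69 to 6.09 in EC-Jag1KO libraries. It partly followed genotype, so it cannot separate cell content from genotype.

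**Figure D5:**
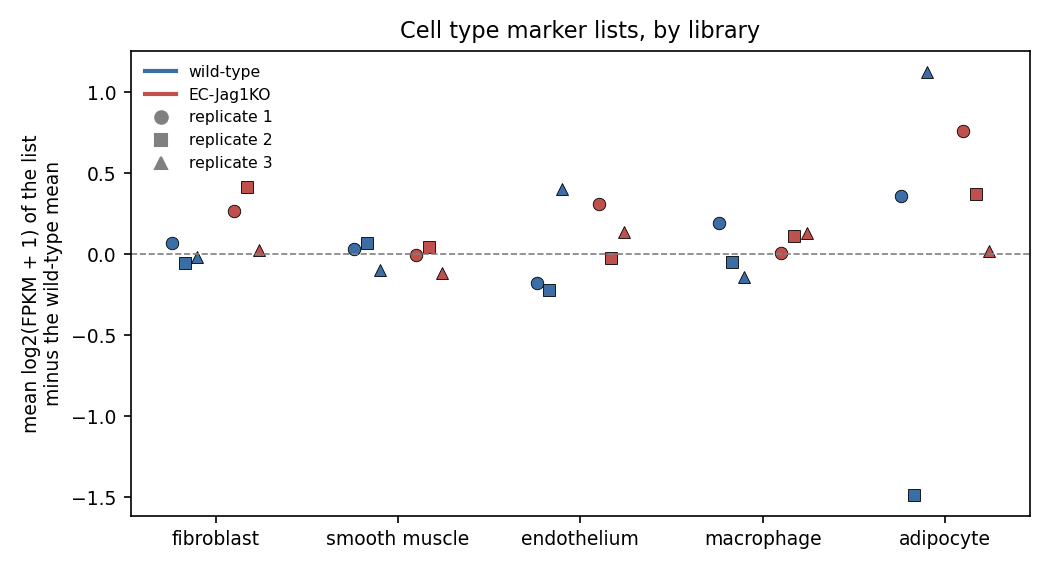
Mean log2(FPKM + 1) of the marker lists minus the wild-type mean, with 1 point per library. The fibroblast list is highest in EC-Jag1KO replicates 1 and 2, and the adipocyte list spans the widest range within the wild-type libraries.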

How the data were processed

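The authors deposited 1 table of FPKM values per gene with 1 column per sample and gene coordinates and lengths, per the file headers. The submitters' processing notes list the build mm10 and, with no role or version, STAR, HTSeq and edgeR. The sources used here state no annotation, strand setting or filter. Total RNA came from RNeasy Mini spin columns, per the labels. FPKM times gene length moved in steps of 1 read, and 211650 of 211650 values (100%) are within 0.05 of a whole number of reads, so depth was recovered.

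limma 3.58.1 in R 4.3.3 was run on log2(FPKM + 1), which understates changes of low genes, keeping genes that averaged 1 FPKM or more. Its model held genotype alone and allowed the variance to follow intensity. Ratios were tested with SciPy 1.17.1, and figures drawn with matplotlib 3.10.9. The limma script was tested on simulated data. Members, gene lists (208 symbols, all matched, 2 of them by identifier) and tests were chosen with earlier results of these data known. Named are all members and family genes, in each pathway list the most abundant gene and the 2 of smallest p, in each marker list the 2 most abundant, and per member the 2 nearest profiles. Same-numbered libraries did not deviate together, so the replicate number was not taken as a pairing. The alternatives covered pseudocount, filter, scaling, variance model, weights, recovered reads, covariates, replicate block and left-out libraries. Those without both female libraries and with voom quality weights were chosen after seeing the data.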

Additional observations from a re-analysis of the deposited data

How the results depend on the processing

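The log2 fold changes of Fmod, Dcn, Aspn, Lum, Prelp, Omd and Ogn kept their direction under all 20 alternatives. Bgn turned to 0.065 with the fibroblast covariate and ran from -0.21 to 0.033 with each library left out, above 0 without EC-Jag1KO replicate 1, and Podn to -0.098 with that covariate. With array weights, where EC-Jag1KO replicate 1 weighed 14.7 and each other library 0.259 to 1.61, Fmod (adjusted p = 0.00719), Aspn (0.0181) and Prelp (0.0257) passed, and with voom quality weights Fmod passed (0.0428); the adjusted p of Fmod ran from 0.00719 to 0.922 over its alternatives. Genes past the adjusted threshold numbered 1647 with array weights, 43 with voom quality weights, 1 with sex as a covariate, 2 without both female libraries and 0 to 4 with each library left out, the 4 without EC-Jag1KO replicate 1. Genes with an unadjusted p under 0.05 numbered 938 in the test as reported, 4215 with array weights, 2220 with voom quality weights, 2207 with the fibroblast covariate, 1436 without a filter, 604 when wild-type replicate 2 was dropped, 588 when EC-Jag1KO replicate 1 was, and 1437 when EC-Jag1KO replicate 2 was. The median over the members was 0.016 with array weights, 0.061 with voom quality weights, 0.065 with the fibroblast covariate and 0.025 to 0.20 with each library left out, lowest without EC-Jag1KO replicate 2. The causes were not tested. Without both female libraries 3 members were higher and 4 lower without overlap, beside 24.1% and 19.8% of tested genes. The Fmod to Lum difference ran from -1.29 to -0.88 with each library left out and was -1.35 without both female libraries. The Bgn to Dcn difference ran from -0.12 to 0.14 and was -0.11 without both female libraries. With the replicate block Fmod kept a log2 fold change of -0.83 (adjusted p = 0.526 in limma), and 0 genes passed, as without it. The ratio tests with the block gave exact p of 0.25 and 0.75, where 0.25 is the smallest possible. Correlations of same-numbered libraries were 0.055, 0.051 and -0.050, beside -0.24 to 0.19 for libraries of unlike number. The planned edgeR alternative was not run. Recovered reads were tested with limma voom instead, where 0 genes passed the adjusted threshold without quality weights. Depth limits Epyc, Nyx, Podnl1 and Nepn, on 0 to 59 reads per library. It also limits the lymphocyte and mesothelial markers.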
